A study of Homo sapiens with 8 samples.

Results

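Messenger RNA levels of 10 genes that act at DNA double-strand breaks were followed in U2OS cells, a human osteosarcoma line, after knockdown of MEPCE. The genes were H2AX, MDC1, RNF8, RNF168, TP53BP1, RIF1, MAD2L2, SHLD1, SHLD2 and SHLD3. They were taken as a group by their roles, with earlier results of these data known, and each of the 10 matched 1 of the 80311 rows of the deposited count table. The 8 libraries of total RNA formed 4 groups of 2. AsiSI siMePCE and AsiSI siNC came from U2OS- AiD-DiVA AsiSI -ER cells (called AsiSI from here on), grown under G418. Both received 300 nM 4-hydroxytamoxifen (4-OHT) for 4 h from 92 h, which brings the AsiSI restriction enzyme into action to cut DNA. Flp-In siMePCE and Flp-In siNC came from U2OS-Flp-In-TREx cells (called Flp-In), grown under Zeocin and Blasticidin, and 4-OHT is not stated for them. All groups were transfected with siRNA at 0 and 48 h and lysed at 96 h, with siMePCE against MEPCE, the 7SK capping enzyme, or with the control siNC. The study concerns MePCE in homologous recombination and R-loop resolution at such breaks. AsiSI cells without 4-OHT were not analysed here, so cell line, 4-OHT and cutting cannot be told apart. A single siMePCE label is given, so loss of MEPCE and other effects of that siRNA cannot be told apart either. Whether the 2 replicates of a group were grown apart is not stated, so each p-value reflects the spread between libraries alone, which may be technical.

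The 10 genes form a relay that starts at a broken DNA end. Histone H2AX around the break is phosphorylated, the scaffold MDC1 binds this mark, and MDC1 brings in the ubiquitin ligase RNF8. RNF168, a second ubiquitin ligase, then marks histone H2A with ubiquitin, and TP53BP1 (53BP1) reads that mark. 53BP1 recruits RIF1 and, through it, the shieldin complex of SHLD1, SHLD2, SHLD3 and MAD2L2. Shieldin limits the trimming of DNA ends, which favours end joining over homologous recombination. Much of the relay is run by protein modification, and these libraries measured only RNA.

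Total counts ran from 41431776 to 53695626 per library. MEPCE had 162 and 102 counts in AsiSI siMePCE and 1405 and 1542 in AsiSI siNC, and 264 and 234 in Flp-In siMePCE and 1712 and 1676 in Flp-In siNC. An overlapping row covered 99.67% of MEPCE and had 1.08 times its counts. The mitochondrial share of counts was 8.24% to 10.55% under siMePCE and 5.23% to 5.91% under siNC. Of 7 osteoblast lineage markers, RUNX2 (30.1 to 44.6 CPM), COL1A1, SPARC and SPP1 were present in every library, whereas SP7, ALPL and BGLAP stayed at or below 1.29 CPM. Of markers of other cells, CD3E, KRT5 and CDH5 stayed at or below 1.89 CPM, EPCAM and CDH1 lay between 2.13 and 6.64 CPM, and PTPRC, a blood marker, between 1.07 and 7.50 CPM. Overlapping rows had 1.08, 3.81 and 11.6 times the counts of SPP1, EPCAM and PTPRC, so reads of these markers are uncertain. CPM is the usual library-scaled count, here after TMM scaling.

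Genes were counted as whole intervals with their introns, so a row can hold reads of its neighbours. H2AX and SHLD1 overlapped no other row, and the rows inside RNF8 and RNF168 had 0.007 and 0.04 times their counts. In TP53BP1 and SHLD2, 6.23% and 3.23% of the interval lay under other genes. For RIF1, MAD2L2 and MDC1 this share was 23.1%, 47.3% and 57.4%. The overlapping gene TUBGCP4 had 0.536 times the counts of TP53BP1. NUTM2A-AS1 and GLUD1, which overlap SHLD2, had 1.96 and 1.23 times its counts. SHLD3 lay wholly inside TRAPPC13 on the same strand, and TRAPPC13 had 3.48 times its counts, so reads there cannot be assigned to SHLD3. The antisense gene MDC1-AS1 lay inside MDC1 with 0.835 times its counts. Because of the introns, levels of different genes in CPM are not set against each other here.

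**Figure D1:**
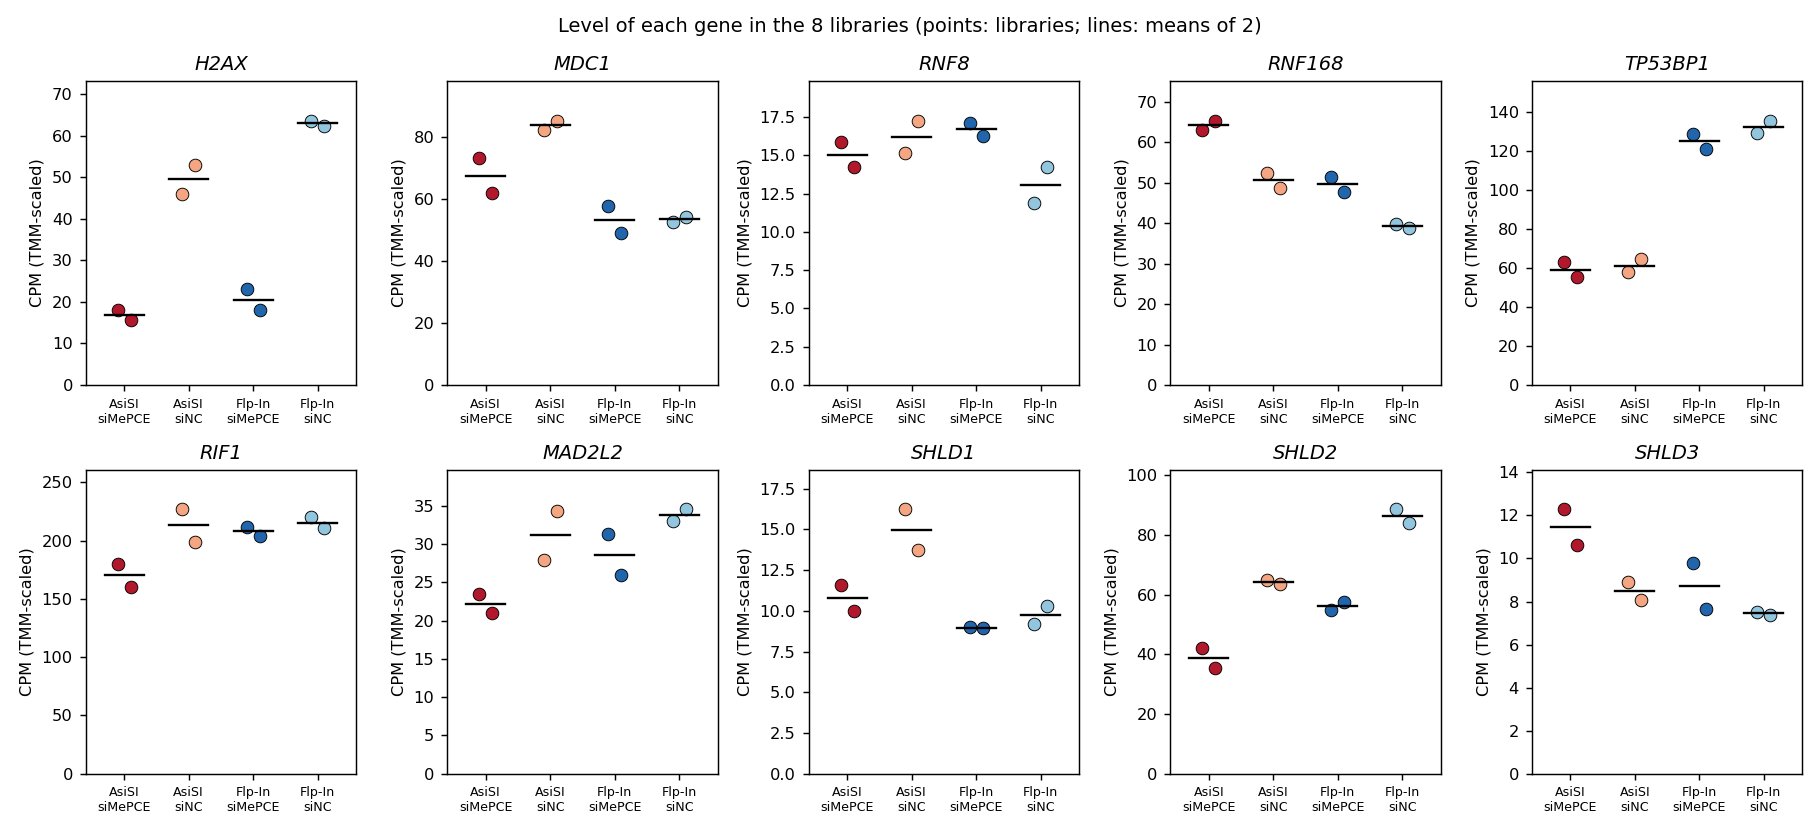
Each panel shows 1 gene, with the TMM-scaled CPM on the vertical axis from 0 and the 4 groups on the horizontal axis; points are the 2 libraries of a group and lines their means. H2AX is low in all 4 siMePCE libraries, at 15.5 to 23.0 CPM, and TP53BP1 is low in all 4 AsiSI libraries, at 55.2 to 64.4 CPM.

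After siMePCE, H2AX and SHLD2 fell and RNF168 rose in both lines. In AsiSI, 6 of the 10 genes fell (H2AX, MDC1, RIF1, MAD2L2, SHLD1 and SHLD2) and 2 rose (RNF168 and the row of SHLD3). Reads in that row cannot be assigned to SHLD3, so its call does not show a rise of SHLD3 itself. TP53BP1 and RNF8 were not called in AsiSI. In Flp-In, 2 fell (H2AX and SHLD2), 2 rose (RNF8 and RNF168) and 6 were not called. A call is an edgeR adjusted p under 0.05 over all 43321 genes tested. Of all tested genes, 38.1% were called in AsiSI (16.8% higher, 21.3% lower) and 40.8% in Flp-In (18.1% higher, 22.7% lower). The 10 genes all averaged at least 5 CPM, and of the 16950 genes that did so, 60.2% were called in AsiSI and 62.1% in Flp-In. Of the 10 genes, 8 were called in AsiSI and 4 in Flp-In, and no test was made against that background. By direction, 40.6% of those 16950 genes were lower and 19.6% higher in AsiSI, and 38.3% were lower and 23.8% higher in Flp-In. The median log2 fold change of the 10 genes was -0.32 in AsiSI and -0.07 in Flp-In, beside -0.17 and -0.11 for the 16950 genes. The lower calls of MDC1, RIF1, MAD2L2 and SHLD1 in AsiSI each depended on single AsiSI libraries, which are named for each gene below. The count of 2 higher in AsiSI was 1 without any single one of the 4 AsiSI or the 2 Flp-In siNC libraries. The count of 2 higher in Flp-In was 0 without replicate 1 of Flp-In siMePCE or of Flp-In siNC, and 1 without replicate 2 of either group.

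**Figure D2:**
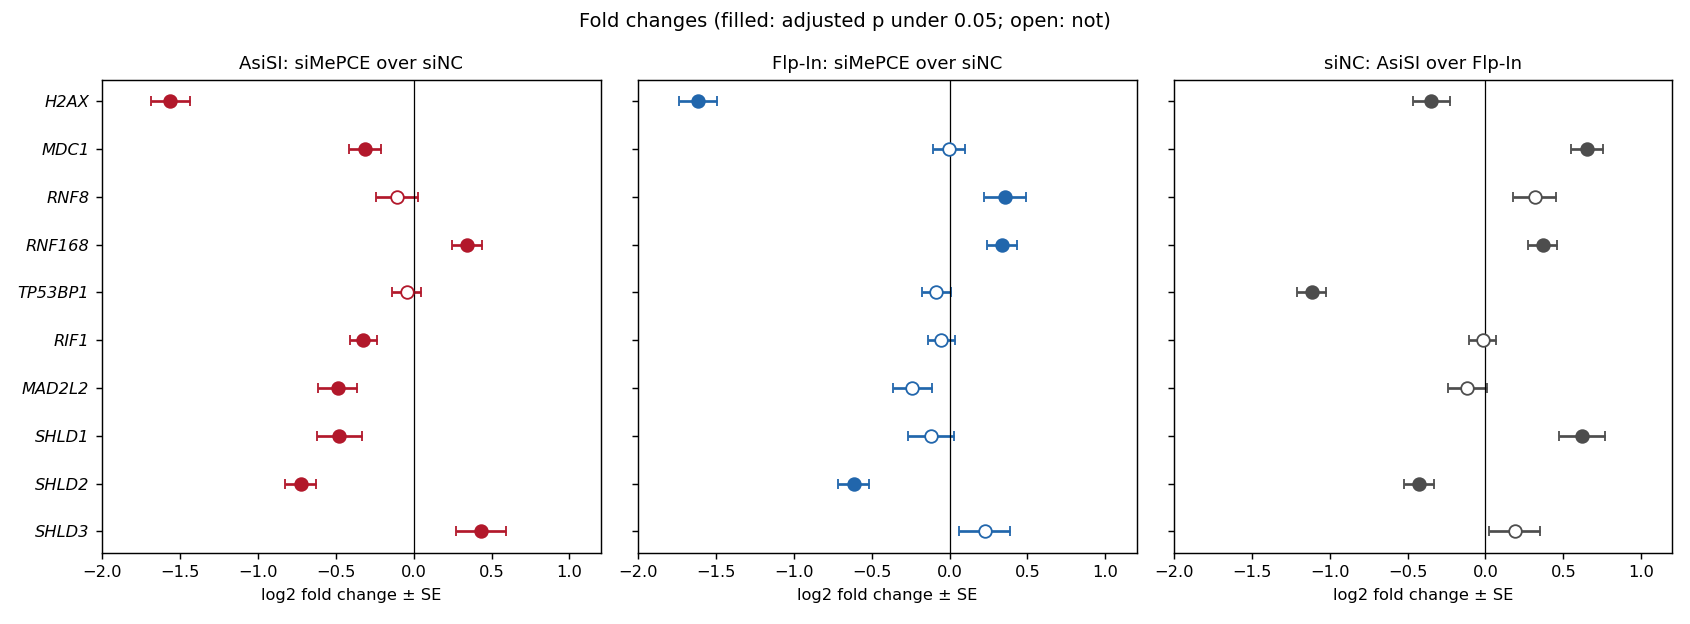
Log2 fold changes (horizontal axis) with their standard errors for the 10 genes (vertical axis), for siMePCE over siNC in AsiSI, for the same in Flp-In, and for AsiSI over Flp-In under siNC; filled points have an adjusted p under 0.05. H2AX stands at -1.56 and -1.62 in the knockdown panels, and TP53BP1 at -0.04 and -0.08 there but at -1.12 between the lines.

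H2AX (ENSG00000188486, chromosome 11, 118964584 to 118966175, minus strand, hg19), the histone variant whose phosphorylated form marks breaks, fell in both lines. It had 18.04 and 15.5 CPM in AsiSI siMePCE, against 46.1 and 53.03 CPM in AsiSI siNC. In Flp-In it had 23.0 and 18.1 CPM under siMePCE, against 63.6 and 62.4 CPM under siNC. All 4 siMePCE libraries lay below all 4 siNC libraries. H2AX was 2.95-fold lower in AsiSI (a log2 change of -1.56, SE 0.124, adjusted p = 3.52e-09) and 3.07-fold lower in Flp-In (-1.62, SE 0.123, adjusted p = 1.83e-09). The effects differed between the lines by 0.06 (SE 0.172, adjusted p = 0.912). The call held under every alternative run, with log2 fold changes of -1.69 to -1.45 in AsiSI and -1.82 to -1.46 in Flp-In. In bulk RNA, fewer cells that make a transcript and less of it per cell cannot be told apart. Genes of replication and mitosis, among them RRM2, MCM7 and KIF20A, also fell, with 24 of 25 lower in AsiSI (median log2 fold change -1.36) and 25 of 25 in Flp-In (median -1.003). Among all genes of at least 5 CPM, 40.6% were lower in AsiSI and 38.3% in Flp-In. Whether the fall of these replication and mitosis genes and that of H2AX share a source was not tested.

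Other histone genes were mixed. H1-10, a linker histone, had log2 fold changes of -1.54 in AsiSI and -1.69 in Flp-In. H2AZ1, an H2A variant of promoters, had 63.0 ± 0.716 CPM in AsiSI siMePCE and 109 ± 7.14 CPM in AsiSI siNC (SD, n = 2), and its log2 fold changes were -0.79 (adjusted p = 8.27e-07) and, in Flp-In, -0.71 (adjusted p = 2.65e-06). Its paralogue H2AZ2 was called in AsiSI, at -0.30 (adjusted p = 0.0122), and had -0.00 in Flp-In (adjusted p = 0.989). Of 9 histone genes in this list, 5 were lower and 0 higher in each line by edgeR, where 40.6% of genes of at least 5 CPM were lower in AsiSI and 38.3% in Flp-In. Averaged over both lines, 3 of the 9 were lower and 6 not called. At an unadjusted p under 0.05, 1 was higher in each line, and DESeq2 called 1 higher in Flp-In and 0 in AsiSI. An overlapping row held 0.815 times the counts of H1-10.

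The start of H2AX is shown because it fell in both lines and carries several motifs of cell-cycle and histone gene promoters, beside those of RNF168, which rose in both, and TP53BP1, which differed between the lines. Each is the 250 bases before the annotated start site, from RefSeq (GRCh38.p14), 5′ to 3′ on the gene's strand. Capitals mark matches on either strand. The motifs were CCAAT, bound by NF-Y, the TATA box as TATAAA, the core of the cell-cycle homology region as TTTGAA, and an E2F site as TTTGGCGC. Both strands were searched, and no matches overlapped each other in the windows shown.
H2AX, chr11:119095466-119095715, minus strand: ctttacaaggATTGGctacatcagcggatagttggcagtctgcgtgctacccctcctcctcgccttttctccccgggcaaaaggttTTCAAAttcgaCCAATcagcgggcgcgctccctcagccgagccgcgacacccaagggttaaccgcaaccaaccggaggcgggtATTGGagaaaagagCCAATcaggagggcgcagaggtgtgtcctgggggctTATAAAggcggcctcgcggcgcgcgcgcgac
RNF168, chr3:196503769-196504018, minus strand: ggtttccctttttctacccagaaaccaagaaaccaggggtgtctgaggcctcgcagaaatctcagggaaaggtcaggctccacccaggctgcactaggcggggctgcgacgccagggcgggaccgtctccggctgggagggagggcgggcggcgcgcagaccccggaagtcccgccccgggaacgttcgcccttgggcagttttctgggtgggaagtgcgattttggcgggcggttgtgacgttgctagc
TP53BP1, chr15:43510641-43510890, minus strand: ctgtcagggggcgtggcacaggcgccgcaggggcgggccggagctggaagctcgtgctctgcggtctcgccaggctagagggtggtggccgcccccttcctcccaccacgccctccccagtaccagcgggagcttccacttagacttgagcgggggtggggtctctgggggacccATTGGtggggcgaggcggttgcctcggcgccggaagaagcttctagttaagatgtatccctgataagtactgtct

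The H2AX window held 4 CCAAT matches, 1 TATA match and 1 TTTGAA match. TP53BP1 held 1 CCAAT match, and RNF168 held no match to any of the motifs. Of 35116 RefSeq promoters of this length, 32% held CCAAT, 10.7% TATAAA, 13.3% TTTGAA and 0.55% TTTGGCGC, and 0.874% held CCAAT at least 4 times. In total 8 of the 10 genes had a window in the table. MDC1 held 2 CCAAT and 1 TTTGAA match and RIF1 held 1 of each. RNF8 held 1 CCAAT match, as did 1 of the 2 windows of MAD2L2, and SHLD3 held none. A match describes letters and was not tested as a site. Only these exact letters were searched, so variant sites would be missed. The RNF168 window holds tttggcgg, which differs from the searched TTTGGCGC in its last letter and was not counted. The H2AX window was shown partly for its matches, so the shares above are no test of it.

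MDC1 (ENSG00000137337, chromosome 6, 30667584 to 30685224, minus strand, hg19), the scaffold that reads phosphorylated H2AX, had 73.3 and 61.9 CPM in AsiSI siMePCE, against 82.3 and 85.3 CPM in AsiSI siNC. In Flp-In the groups overlapped, with 57.6 and 49.1 CPM under siMePCE and 52.6 and 54.2 CPM under siNC. MDC1 was 1.24-fold lower in AsiSI (a log2 change of -0.31, SE 0.102, adjusted p = 0.0203) and had a log2 fold change of -0.00 in Flp-In (SE 0.103, adjusted p = 0.993). The AsiSI call was lost without AsiSI siMePCE replicate 2 (adjusted p = 0.229) or AsiSI siNC replicate 2 (0.071). MDC1-AS1, whose reads cannot be told from those of MDC1 without strand, had log2 fold changes of -0.32 in AsiSI and 0.04 in Flp-In.

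RNF168 (ENSG00000163961, chromosome 3, 196195654 to 196230639, minus strand, hg19), the ligase that builds the mark read by 53BP1, was the only 1 of the 10 genes called higher in both lines. It had 63.1 and 65.4 CPM in AsiSI siMePCE, against 52.5 and 48.8 CPM in AsiSI siNC. Flp-In libraries had 51.6 and 47.8 CPM under siMePCE, against 39.8 and 38.8 CPM under siNC. The siMePCE libraries lay above the siNC libraries within each line, and Flp-In siMePCE overlapped AsiSI siNC. RNF168 rose 1.27-fold in each line, with a log2 fold change of 0.34 in AsiSI (SE 0.0945, adjusted p = 0.00658) and 0.34 in Flp-In (SE 0.0955, adjusted p = 0.00716). Averaged over both lines it rose by 0.34 (SE 0.0672, adjusted p = 0.000227), and this call held under every alternative run for the average (adjusted p 4.47e-07 to 0.00309). The call in AsiSI was lost without AsiSI siMePCE replicate 2 (adjusted p = 0.0508). The call in Flp-In was lost without Flp-In siMePCE replicate 1 (0.0913) or either replicate of Flp-In siNC (0.0545 and 0.0783).

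RNF8 (ENSG00000112130, chromosome 6, 37321755 to 37362510, plus strand, hg19), the first ligase of the relay, had 15.9 and 14.2 CPM in AsiSI siMePCE and 15.2 and 17.3 CPM in AsiSI siNC, which overlapped. In Flp-In it had 17.1 and 16.3 CPM under siMePCE, against 11.9 and 14.2 CPM under siNC. It rose 1.28-fold in Flp-In (log2 fold change 0.36, SE 0.137, adjusted p = 0.042) and had a log2 fold change of -0.11 in AsiSI (adjusted p = 0.565). The Flp-In call was lost without Flp-In siMePCE replicate 1 (adjusted p = 0.194), Flp-In siMePCE replicate 2 (0.0973) or Flp-In siNC replicate 1 (0.405), and with no filter on low counts (0.0829).

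TP53BP1 (ENSG00000067369, chromosome 15, 43695259 to 43802926, minus strand, hg19), the reader of the ubiquitin mark, was not called after siMePCE in either line. It had 63.1 and 55.2 CPM in AsiSI siMePCE and 57.7 and 64.4 CPM in AsiSI siNC, and 129 and 121 CPM in Flp-In siMePCE and 129 and 135 CPM in Flp-In siNC. Its log2 fold changes were -0.04 in AsiSI (SE 0.0939, adjusted p = 0.745) and -0.08 in Flp-In (SE 0.0923, adjusted p = 0.493). With these standard errors a small change could be missed, so the lack of a call does not show that TP53BP1 was unchanged. TUBGCP4, which overlaps TP53BP1 with 0.536 times its counts, was called lower in both lines, at -0.47 in AsiSI and -0.44 in Flp-In.

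RIF1 (ENSG00000080345, chromosome 2, 152266397 to 152364527, plus strand, hg19), which acts next to 53BP1, had 180 and 160 CPM in AsiSI siMePCE, against 227 and 199 CPM in AsiSI siNC. In Flp-In it had 212 and 204 CPM under siMePCE and 220 and 211 CPM under siNC. NEB, which overlaps RIF1 with 0.205 times its counts, had log2 fold changes of 0.22 in AsiSI and -0.28 in Flp-In. It was called in Flp-In only. RIF1 was 1.25-fold lower in AsiSI (a log2 change of -0.32, SE 0.0863, adjusted p = 0.00526) and had -0.05 in Flp-In (SE 0.0861, adjusted p = 0.661). Its AsiSI call was lost without AsiSI siMePCE replicate 2 (adjusted p = 0.0821) or AsiSI siNC replicate 1 (0.0825).

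Of the 4 shieldin genes, SHLD2 fell in both lines. SHLD2 (ENSG00000122376, chromosome 10, 88853918 to 88951222, plus strand, hg19), the subunit that binds single-stranded DNA, had 42.3 and 35.5 CPM in AsiSI siMePCE, against 64.9 and 63.7 CPM in AsiSI siNC. Flp-In libraries had 54.97 and 57.7 CPM under siMePCE, against 88.6 and 84.0 CPM under siNC. The groups did not overlap within either line. SHLD2 was 1.65-fold lower in AsiSI (a log2 change of -0.72, SE 0.0989, adjusted p = 5.59e-06) and 1.53-fold lower in Flp-In (-0.62, SE 0.0978, adjusted p = 3.25e-05), and both calls held under every alternative run. The genes that overlap its ends, GLUD1 and NUTM2A-AS1, had log2 fold changes of -0.31 and 0.09 in AsiSI and 0.03 and 0.05 in Flp-In. The related copies SHLD2P1, SHLD2P2 and SHLD2P3 had 114, 217 and 523 counts over all libraries, against 22729 for SHLD2.

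MAD2L2 (ENSG00000116670, chromosome 1, 11717287 to 11751868, minus strand, hg19), a shieldin subunit that also serves the translesion polymerase zeta, had 23.5 and 21.0 CPM in AsiSI siMePCE, against 27.9 and 34.3 CPM in AsiSI siNC. Flp-In libraries had 31.3 and 26.0 CPM under siMePCE and 33.0 and 34.5 CPM under siNC. It was 1.40-fold lower in AsiSI (a log2 change of -0.49, SE 0.125, adjusted p = 0.00387), a call lost without AsiSI siNC replicate 2 (adjusted p = 0.0728). In Flp-In its log2 fold change was -0.24 (SE 0.124, adjusted p = 0.132). Fitted with only the 4 Flp-In libraries it was -0.23, with adjusted p = 0.0474. FBXO44, which overlaps MAD2L2 with 0.241 times its counts, had log2 fold changes of 0.55 in AsiSI and 0.56 in Flp-In.

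SHLD1 (ENSG00000171984, chromosome 20, 5731039 to 5845041, plus strand, hg19), the partner of SHLD2, had 11.6 and 9.98 CPM in AsiSI siMePCE, against 16.2 and 13.8 CPM in AsiSI siNC, and between 8.96 and 10.3 CPM in the 4 Flp-In libraries. It was 1.39-fold lower in AsiSI (a log2 change of -0.48, SE 0.146, adjusted p = 0.0133) and had -0.12 in Flp-In (SE 0.150, adjusted p = 0.555). The AsiSI call was lost without AsiSI siMePCE replicate 2 (adjusted p = 0.11) or AsiSI siNC replicate 1 (0.143).

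The row of SHLD3 (ENSG00000253251, chromosome 5, 64920854 to 64926755, plus strand, hg19), which links shieldin to RIF1, had 12.3 and 10.6 CPM in AsiSI siMePCE, against 8.90 and 8.08 CPM in AsiSI siNC. In Flp-In it had 9.77 and 7.65 CPM under siMePCE and 7.51 and 7.40 CPM under siNC. It rose 1.35-fold in AsiSI (a log2 change of 0.43, SE 0.159, adjusted p = 0.0374) and had 0.23 in Flp-In (SE 0.162, adjusted p = 0.282). The AsiSI call was lost with no filter on low counts (adjusted p = 0.0655) and without either replicate of Flp-In siNC (0.0608 and 0.0606) or of AsiSI siNC (0.0779 and 0.172), or AsiSI siMePCE replicate 1 (0.232). In the fit without AsiSI siMePCE replicate 2 it kept its call. TRAPPC13 and TRIM23, which share its interval, had log2 fold changes of 0.25 and 0.44 in AsiSI and 0.30 and 0.46 in Flp-In.

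**Figure D3:**
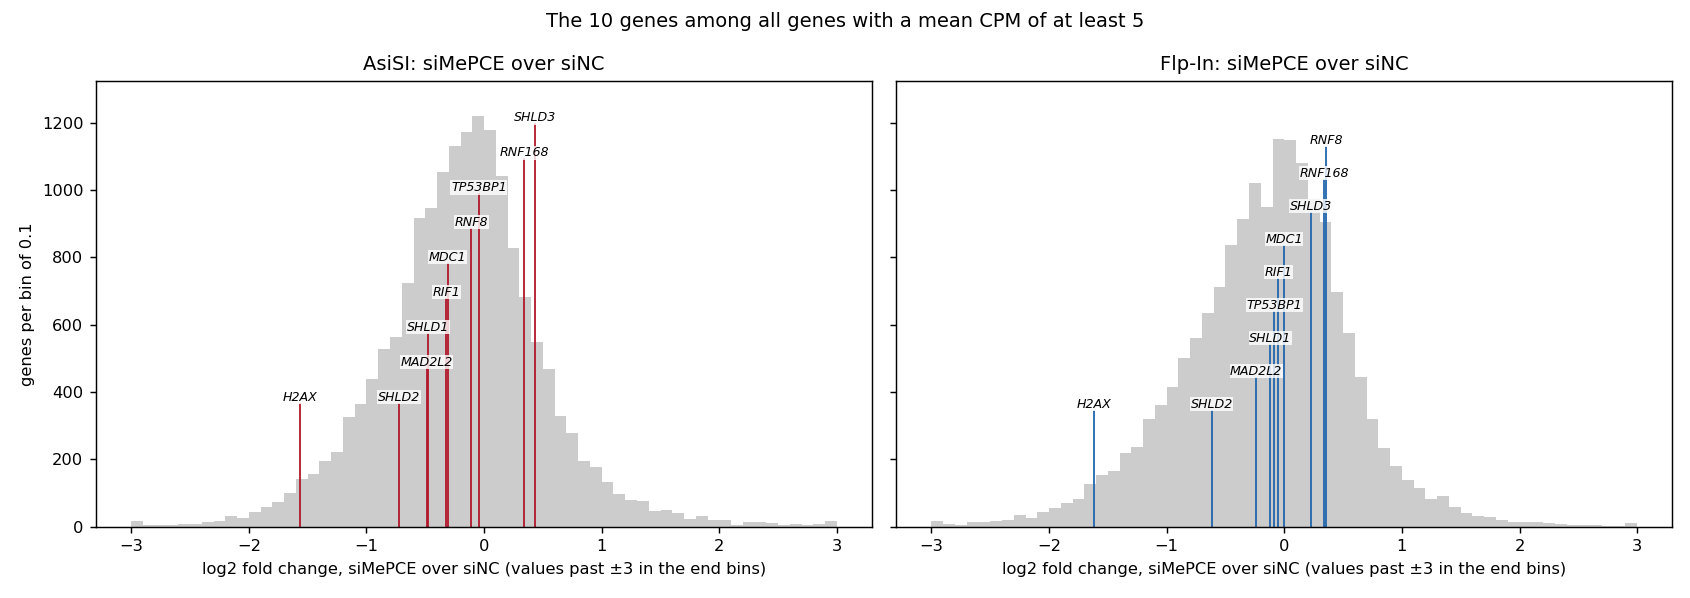
Grey bars count the 16950 genes that averaged at least 5 CPM (vertical axis) by log2 fold change of siMePCE over siNC (horizontal axis), in AsiSI and in Flp-In; coloured lines mark the 10 genes. H2AX lies in the lower tail at -1.56 in AsiSI and -1.62 in Flp-In, and the other 9 genes lie between -0.72 and 0.43.

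A test of AsiSI minus Flp-In asked whether the lines responded unequally to siMePCE. By edgeR 0 of the 10 genes were called, where 4.17% of all tested genes were (2.51% higher, 1.66% lower), and by DESeq2 0 were called. Of genes that averaged at least 5 CPM, 8.22% were called (4.45% higher, 3.77% lower). At an unadjusted p under 0.05 there were 3, RNF8 at -0.47 (SE 0.192, adjusted p = 0.197), RIF1 at -0.27 (SE 0.122, adjusted p = 0.244) and MDC1 at -0.31 (SE 0.145, adjusted p = 0.268). The calls made in AsiSI alone for MDC1, RIF1, MAD2L2, SHLD1 and SHLD3 and in Flp-In alone for RNF8 were thus not shown to differ between the lines. Averaged over both lines, 52.5% of all genes were called (25.2% higher, 27.2% lower), and 71.9% of genes of at least 5 CPM (26.6% higher, 45.3% lower). In this average 5 of the 10 fell (H2AX, SHLD2, MAD2L2, SHLD1 and RIF1) and 2 rose (RNF168 and the row of SHLD3, which shares its reads with TRAPPC13). MAD2L2 fell by 0.36 on the log2 scale in the average (SE 0.088, adjusted p = 0.00165). The averaged calls of H2AX, SHLD2, MAD2L2 and RNF168 held under every alternative run. The averaged call of RIF1 was lost without AsiSI siMePCE replicate 2 or AsiSI siNC replicate 1 (log2 fold change -0.15 in each fit). That of SHLD1 was lost without either of these libraries (-0.25 in each fit). The SHLD1 call was also lost without Flp-In siMePCE replicate 2 (-0.30) or Flp-In siNC replicate 2 (-0.27). The count of 2 was 1 without Flp-In siMePCE replicate 1, either replicate of Flp-In siNC, AsiSI siMePCE replicate 1, or replicate 2 of AsiSI siNC.

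Under siNC, AsiSI cells were compared with Flp-In cells. TP53BP1 had 57.7 and 64.4 CPM in AsiSI siNC, against 129 and 135 CPM in Flp-In siNC. All 4 AsiSI libraries, siMePCE included, lay below all 4 Flp-In libraries. TP53BP1 was 2.17-fold lower in AsiSI (a log2 change of -1.12, SE 0.094, adjusted p = 1.10e-08), with -1.18 to -1.04 over the alternatives. MDC1 was 1.57-fold higher in AsiSI (a log2 change of 0.65, SE 0.103, adjusted p = 4.87e-05), with 82.3 and 85.3 CPM in AsiSI siNC against 52.6 and 54.2 CPM in Flp-In siNC. MDC1-AS1, which lies inside MDC1, differed by 0.68 in the same comparison (adjusted p = 5.37e-05), and reads of the pair cannot be told apart. SHLD1 and RNF168 were 1.54-fold and 1.29-fold higher in AsiSI (adjusted p = 0.00266 and 0.00551). SHLD2 and H2AX were 1.34-fold and 1.27-fold lower (adjusted p = 0.00197 and 0.0305). RIF1, MAD2L2, SHLD3 and RNF8 had log2 fold changes of -0.02, -0.12, 0.19 and 0.32 and were not called. In all, 3 of the 10 genes were higher and 3 lower, where 29.5% of tested genes were called (14.4% higher, 15.1% lower) and 47.2% of genes of at least 5 CPM. The count of 3 lower was 1 without Flp-In siNC replicate 1, where SHLD2 (adjusted p = 0.0577) and H2AX (0.184) lost their calls. The count of 3 higher was 1 without AsiSI siNC replicate 1, where SHLD1 (0.0505) and RNF168 (0.0559) lost theirs. H2AX also lost its call without replicate 2 of Flp-In siNC (0.141) or replicate 1 of AsiSI siNC (0.242).

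The genes around TP53BP1 were then examined, a step chosen after its value was seen. Of 37 other genes within 1 Mb that averaged at least 5 CPM, 22 were lower and 7 higher in AsiSI under siNC (median log2 fold change -0.48), where 24.8% of all such genes were lower and 22.4% higher. The direction changed along the chromosome. Among the 25 genes from 500 kb on the lower-coordinate side of the TP53BP1 midpoint onward, a limit set after the values were seen, 22 were lower and 0 higher by edgeR, from UBR1, a ubiquitin ligase, at -0.66 to CTDSPL2, a phosphatase, at -0.66. TUBGCP4, a gamma-tubulin complex gene that overlaps TP53BP1, was at -0.98, and MAP1A, LCMT2 and CATSPER2P1, at 0.19, 0.21 and -0.30, were not called. Among the 12 genes farther toward lower coordinates, 7 were higher and 0 lower by edgeR, with SNAP23, a membrane fusion protein, at 0.53 and HAUS2, an augmin subunit, at 0.58. Some of these rows overlap and share reads, so they are not independent. DNA copy number was not measured in these libraries, and its part was not tested.

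**Figure D4:**
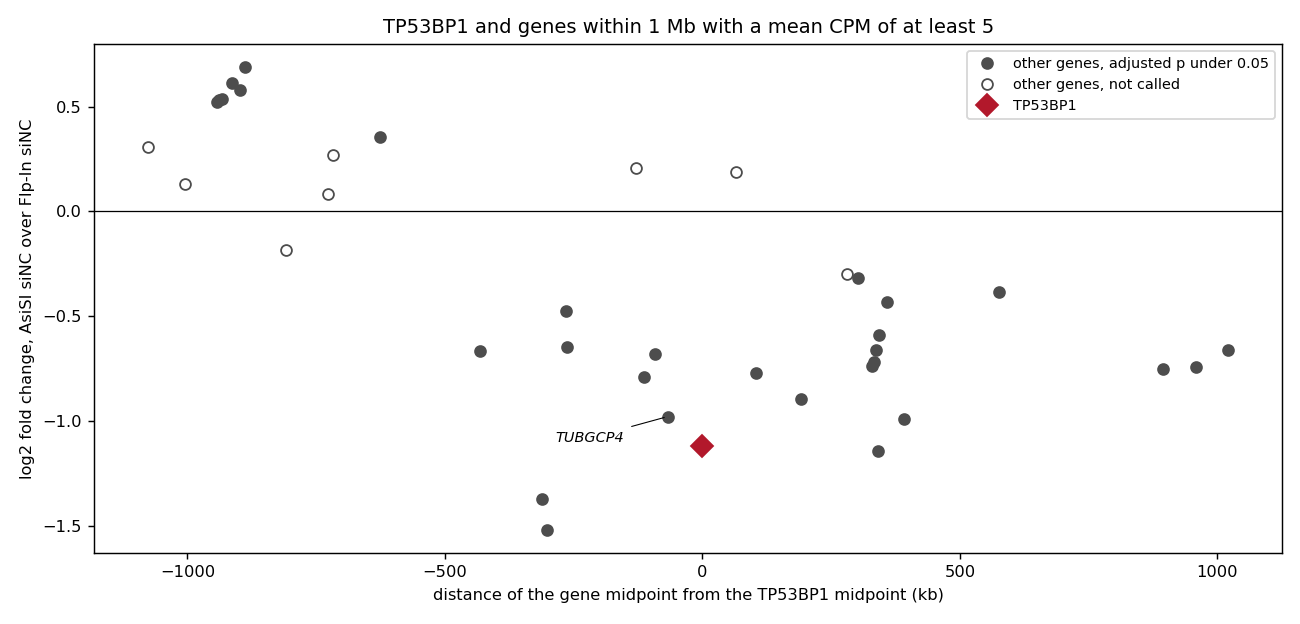
Log2 fold change of AsiSI siNC over Flp-In siNC (vertical axis) against the distance in kb from the TP53BP1 midpoint (horizontal axis) for genes within 1 Mb; filled circles have an adjusted p under 0.05. TP53BP1, the diamond at -1.12, lies among neighbours that are mostly below 0, and the genes more than 500 kb before it lie mostly above 0.

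Genes within 1 Mb were tabulated for the other 9 genes in the same way. Around RNF8, 14 of 16 were higher and 0 lower by edgeR in AsiSI siNC (median log2 fold change 0.71), and around MDC1, also on chromosome 6, 33 of 57 were higher and 7 lower (median 0.41). Around RNF168, 17 of 28 were higher and 1 lower (median 0.41), and around SHLD3, 9 of 16 were higher and 0 lower (median 0.47). Around H2AX, 12 of 36 were lower and 1 higher (median -0.15). The medians around RIF1, MAD2L2, SHLD1 and SHLD2 lay between -0.05 and 0.16.

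The wider pathway was described by lists around the 10 genes, also chosen with earlier results known. Their counts stand beside 40.6% lower and 19.6% higher in AsiSI, and 38.3% lower and 23.8% higher in Flp-In, among genes of at least 5 CPM, whose median log2 fold changes were -0.17 and -0.11. No list was tested against that background. Of 16 genes of break sensing and H2AX marking, 11 fell and 3 rose in AsiSI (median log2 fold change -0.44), and 8 fell and 4 rose in Flp-In (median -0.25). The kinases PRKDC and ATM, which phosphorylate H2AX, had -1.05 and -0.72 in AsiSI and -0.86 and -0.29 in Flp-In. BAZ1B, which phosphorylates H2AX on a tyrosine, had -0.57 and -0.29. PPP2CA, a phosphatase catalytic subunit that removes the H2AX mark, rose by 0.36 in AsiSI (adjusted p = 0.00126) and 0.68 in Flp-In (adjusted p = 1.21e-06), and an overlapping row had 1.65 times its counts. Other phosphatase genes of the list were mixed. PPP4C and EYA1 were lower in both lines, at -0.65 and -0.32 in AsiSI and -0.38 and -0.73 in Flp-In. PPM1D was higher in AsiSI (0.45) and Flp-In (0.33), and EYA3 was called higher in Flp-In only (0.44). The kinase ATR had -0.46 in AsiSI and -0.12 in Flp-In, where it was not called (adjusted p = 0.325).

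Of 29 genes of break-site ubiquitin and SUMO, 14 fell and 2 rose in AsiSI (median -0.25), and 13 fell and 4 rose in Flp-In (median -0.22). BAP1, a deubiquitinase of H2A, had log2 fold changes of -1.34 in AsiSI and -1.14 in Flp-In, and BMI1, a Polycomb partner of the H2A ligase RNF2, had -0.92 and -1.03. RNF2 itself rose, by 0.33 in AsiSI (adjusted p = 0.0087) and 0.55 in Flp-In (adjusted p = 8.58e-05). HERC2, a ligase that works with RNF8, had -0.67 in AsiSI and -0.70 in Flp-In. BABAM2, a subunit of the BRCA1-A complex, had -0.61 and -0.73, and UBE2V1, a ubiquitin-conjugating enzyme variant, had -0.68 and -0.57. Overlapping rows had 0.684 and 1.26 times the counts of BMI1 and UBE2V1.

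Of 20 partners of 53BP1 and end protection, 12 fell and 1 rose in AsiSI (median -0.41), and 11 fell and 5 rose in Flp-In (median -0.32). STN1 and CTC1, subunits of the CST complex that fills in ends for shieldin, had log2 fold changes of -1.20 and -0.56 in AsiSI and -1.11 and -0.66 in Flp-In. TEN1, the remaining CST subunit, had 0.39 in AsiSI (adjusted p = 0.0841) and rose by 0.82 in Flp-In (adjusted p = 0.000783), and an overlapping row had 1.17 times its counts. PRIM1, a primase subunit, had -1.003 and -0.89. TRIP13, an ATPase that takes MAD2L2 complexes apart, had -0.73 in AsiSI and -0.48 in Flp-In. MAD2L1BP, of the same list, rose by 0.43 in AsiSI (adjusted p = 0.0205) and 0.52 in Flp-In (adjusted p = 0.00602). DYNLL1, a light chain that binds 53BP1, had -0.66 and -0.69. Overlapping rows had 1.06, 2.22, 2.75 and 0.843 times the counts of STN1, CTC1, PRIM1 and DYNLL1. On the side of resection and BRCA1, which 53BP1 opposes, 7 of 10 fell and 0 rose by edgeR in AsiSI (median -0.59), with the same counts by DESeq2 and at an unadjusted p under 0.05. In Flp-In 6 fell and 2 rose (median -0.29). RBBP8 (CtIP), which starts resection, had -0.62 in AsiSI and -0.34 in Flp-In, and DNA2, a nuclease, had -0.55 and -0.50. The helicases BLM and WRN had -0.06 and 0.08 in AsiSI, where neither was called, and rose by 0.47 and 0.51 in Flp-In (adjusted p = 0.000674 and 0.000249). The siMePCE effect on BLM differed between the lines by -0.53 (adjusted p = 0.0331), and that on WRN by -0.42 (adjusted p = 0.0897).

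**Figure D5:**
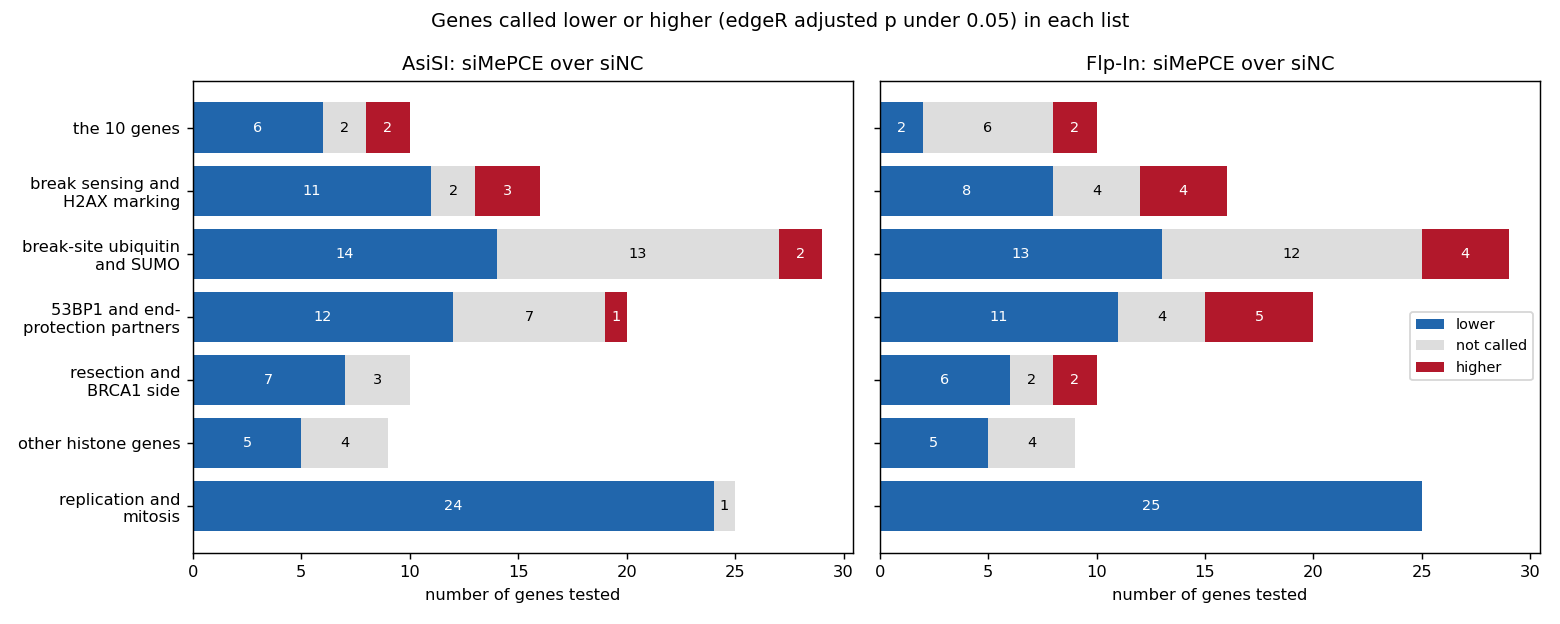
Bars give, for each list (vertical axis), the number of genes tested that were lower, not called or higher after siMePCE (horizontal axis, edgeR adjusted p under 0.05), in AsiSI and in Flp-In. Lower calls outnumber higher calls in every list except the 10 genes in Flp-In, with 2 of each. They also do so among all genes of at least 5 CPM (40.6% against 19.6% in AsiSI, 38.3% against 23.8% in Flp-In).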

How the data were processed

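RNA of 8 libraries was sequenced after removal of ribosomal RNA with a directional kit, per the labels' protocols. Trim Galore, FastQC, STAR, SAMtools, featureCounts and hg19 are named in the submitters' processing notes, with their versions not given in the sources used here. The deposited values are raw counts per gene for 80311 genes, whose stated length equals the whole interval from start to end. Strand and overlap settings of the counting are not given. No count column was left unused. Counts were scaled by TMM, filtered by expression within groups (43321 genes kept) and fitted with 4 group means over all 8 libraries by edgeR 4.0.16 quasi-likelihood in R 4.3.3, with Benjamini-Hochberg adjustment over all genes tested. Standard errors are the log2 fold change over the root of F. Gene symbols matched 59662 rows (74.3%). The fit was tested on simulated data. Alternatives were DESeq2 1.42.0, its size factors, other filters, a replicate block, removal of abundant RNAs, the 4 libraries compared alone, and leaving out each library. Named genes were the 10 genes, MEPCE, up to 5 genes of each list with the smallest adjusted p in the averaged comparison, and the 3 genes closest in pattern to H2AX, RNF168 and TP53BP1. Some genes that this rule names are not reported here. TEN1, RNF2, BLM, WRN, MACROH2A1 and H2AJ, a further few list genes and the neighbours of TP53BP1 were named after their values were seen. The 10 genes and the lists were chosen with earlier results of these data known. The labels do not say that equal replicate numbers mark a shared culture, and samples were treated as unpaired.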

Additional observations from a re-analysis of the deposited data

How the results depend on the processing

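Of the log2 fold changes of the 10 genes under all alternatives, 664 kept their direction and side of the threshold, 38 lost a call, 5 gained one and 23 changed sign. With no filter on low counts, 1 of the 10 genes was higher in Flp-In and 1 in AsiSI, against 2 in each. Leaving out 1 library gave 0 to 2 higher in Flp-In, 1 to 2 higher and 3 to 6 lower in AsiSI, 1 to 2 higher and 3 to 6 lower in the average, and 1 to 3 higher and 1 to 3 lower between the lines. The difference of the siMePCE effect called 1808 genes of all tested, and 658 to 1653 with 1 library left out. With the replicate block it called 2912. The block also gave the averaged fall of MDC1 an adjusted p of 0.0384, against 0.0774 without it. The block was not alone in this, as the fit with no filter on low counts gave 0.044. The averaged log2 fold change of MDC1, -0.16 in the main fit, was -0.23 without replicate 1 of Flp-In siMePCE or of AsiSI siMePCE. Deviations of equal replicate numbers correlated at 0.318 between the siNC groups, 0.253 between the siMePCE groups and 0.209 between the AsiSI groups. The other pairs of groups lay between -0.099 and 0.087. These values do not settle whether equal numbers pair the samples. The samples were left unpaired because the labels do not state pairing. All sign changes were in values that were not called. MDC1 in Flp-In, at -0.00, was at 0.0154 with DESeq2 size factors, 0.0154 with DESeq2, 0.0158 with at least 10 counts in 4 libraries and 0.0107 with only the 4 libraries compared, and ran from -0.1355 to 0.1064 with 1 library left out. TP53BP1 in AsiSI ran from -0.1597 to 0.0414 in the same way. In the difference between lines, leaving out 1 library gave -0.0663 to 0.1312 for TP53BP1, -0.0587 to 0.0598 for RNF168, -0.1164 to 0.2422 for H2AX and -0.2453 to 0.0109 for SHLD2. Between the lines under siNC, RIF1 was at 0.0073 with only the 4 libraries compared and ran from -0.1136 to 0.0951 with 1 left out, and MAD2L2 from -0.2529 to 0.0235. The cause of these changes was not tested. With 2 libraries a group, calls near the threshold rest on single libraries.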

Other observations

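The genes closest in pattern over the 8 libraries, by root mean square difference of centred log2 CPM among 16949 genes, were SRPK2 (0.0534), AGAP3 (0.0587) and EFNA3 (0.0614) for TP53BP1. For RNF168 they were VRK2 (0.0383), ENSG00000233912 (0.0472) and SNRPB2 (0.0491). For H2AX they were ENSG00000260121 (0.0749), HELZ2 (0.0766) and GRK2 (0.078). SRPK2 and AGAP3 lie on chromosome 7 and EFNA3 on chromosome 1, whereas TP53BP1 lies on chromosome 15. ENSG00000233912 lies on chromosome 3, as RNF168 does, and GRK2 on chromosome 11, as H2AX does. VRK2 lies on chromosome 2, SNRPB2 and HELZ2 on chromosome 20 and ENSG00000260121 on chromosome 16.

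In the list of other histone genes, the siMePCE effect on MACROH2A1, an H2A variant, differed between the lines by -0.46 (edgeR adjusted p = 0.024). Its log2 fold change was -0.26 in AsiSI (adjusted p = 0.0153) and 0.20 in Flp-In (adjusted p = 0.0507). H2AJ, another H2A variant of the list, was the other gene with a called difference, at 3.58 (adjusted p = 0.0219). H2AJ had a mean of 0.158 CPM in AsiSI siMePCE and 0.038 CPM in AsiSI siNC, and 1.31 CPM in Flp-In siMePCE and 4.15 CPM in Flp-In siNC, so its difference rests on very few counts in AsiSI. An overlapping row, GUCY2C-AS1, held 103.8 times the counts of H2AJ. DESeq2 also called 1 gene of the list in each direction.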
